A study of Mus musculus with 10 samples.

Results

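The immunity-related GTPases (IRGs) are interferon-inducible GTP-binding proteins of mice that act within single cells against parasites and bacteria living in vacuoles. The 8 IRG genes described here, Irgm1, Irgm2, Igtp, Iigp1, Tgtp1, Tgtp2, Ifi47 and Gm12250, were chosen by name from the family and are 8 of the 45706 genes in the count table. All 8 were found under 1 Ensembl identifier each, and 6 held enough counts to be tested. Transcription of these genes is known to rise with interferon gamma (IFN-γ), a cytokine made by NK cells and T cells, and for several of them also with type I interferon. Irgm1, Irgm2 and Igtp encode the regulatory members, which reside on the cell's own membranes and hold the effector members inactive. The effectors, encoded by Iigp1, Tgtp1, Tgtp2, Ifi47 and Gm12250, load onto the vacuole that encloses a pathogen, where they work beside guanylate-binding proteins. Their loading needs part of the LC3 conjugation machinery of autophagy.

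Bulk tumors were collected 4 days after melanoma cells were implanted under the skin of C57BL/6 mice that were 8 weeks old. All tumors came from 1 Braf-driven mouse melanoma line, used either as COX-competent cells (Ptgs+/+) or after CRISPR/Cas9 removal of Ptgs1 and Ptgs2, which encode COX-1 and COX-2 and lead to prostaglandin E2 (Ptgs-/-). Only the cancer cells carry the deletion, so the host cells of every tumor keep both genes. There were 4 Ptgs+/+ tumors, called COX-competent below, and 3 Ptgs-/- tumors, called COX-deficient, from mice whose labels list no antibody. The authors' methods name control IgG for depletion experiments, and whether these mice received it is not stated. The NK-depleted group is another 3 Ptgs-/- tumors, grown in mice given 200 µg anti-NK1.1 and 30 µg anti-asialo GM1 on days 0 and 2 to deplete NK cells. These doses and days are from the labels, and the schedule in the authors' general methods differs. Each library came from 1 tumor, and the labels do not say whether the deficient cells were 1 clone.

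Libraries held 8150556 to 12839174 counts, so that 3 counts, taken as the detection floor for counting error only, stood for 0.234 to 0.368 CPM (counts scaled to library size and TMM factor). Ptgs2 had 1075 to 4450 counts in COX-competent libraries and 263 to 610 in the 6 libraries of COX-deficient cells, and Ptgs1 had 1223 to 2182 against 744 to 1092. Ncr1, an NK cell receptor gene, had 20 to 77 counts in COX-deficient tumors and 0 in each of the 3 libraries from NK-depleted mice. The 7 melanocytic markers summed to only 20.6 to 37.3 CPM in the 10 tumors, and 5 of the 7 did not reach the filter on low counts. Libraries of code EB042 in the titles were 1 COX-competent (replicate 4) and 1 COX-deficient tumor (replicate 3), and the other 8 carried code EB046.

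Of the 8 members, 7 lie in 2 clusters on chromosome 11 (GRCm38). The first cluster holds Irgm1 (ENSMUSG00000046879) from 48861968 to 48871683, Tgtp1 (ENSMUSG00000078922) from 48985327 to 48994172 and Tgtp2 (ENSMUSG00000078921) from 49057194 to 49064206, all on the minus strand. Ifi47 (ENSMUSG00000078920) follows on the plus strand from 49076587 to 49096974. The second cluster, wholly on the plus strand, holds Gm12250 (ENSMUSG00000082292) from 58187739 to 58189012, Igtp (ENSMUSG00000078853) from 58199556 to 58207591 and Irgm2 (ENSMUSG00000069874) from 58199618 to 58222782. Gm12250, which corresponds to the effector Irgb10, is annotated in GENCODE M21 as a processed pseudogene. Iigp1 (ENSMUSG00000054072) stands apart on chromosome 18, from 60376027 to 60392634 on the plus strand. The spans of Igtp and Irgm2 overlap on the same strand, and that of Olfr56 covers Ifi47 on the same strand and Tgtp1 and Tgtp2 on the opposite one. Gm12185, an IRG-like gene, overlaps Tgtp1 by 6900 bases on the same strand. How reads from such overlaps were assigned is not stated, so these counts are uncertain to that extent.

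**Figure D1:**
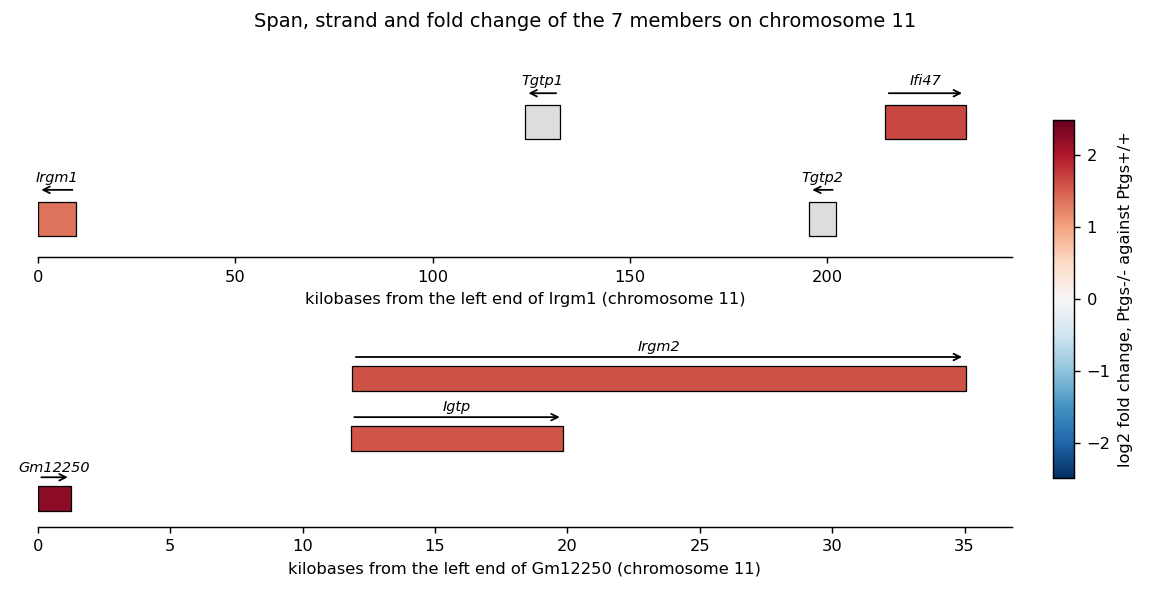
Positions of the 7 members on chromosome 11, as kilobases from the left end of Irgm1 (upper panel) or Gm12250 (lower panel). Boxes are annotated gene spans, arrows give the strand, and colour gives the log2 fold change of COX-deficient against COX-competent tumors; Tgtp1 and Tgtp2 are grey because they were not tested, and the other 5 are all on the higher side.

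The start sites are shown because interferons act on such genes through short motifs close to them. These include the interferon-stimulated response element (ISRE), bound by interferon regulatory factors, and the gamma-activated site (GAS), named for its part in the response to IFN-γ. RefSeq windows (GRCm38.p6) running from 250 bases before to 50 bases after the start were matched for the 7 members on chromosome 11. Both strands were searched for the cores GAAANNGAAA (ISRE) and TTCNNNGAA (GAS). An ISRE core occurred in 6 of the 7 windows against 3.443% of all 32851 windows, a GAS core in 5 of 7 against 8.298%, and both cores in 5 of 7 against 0.454%. The Ifi47 window held neither. Around the matches the windows of Igtp and Irgm2 are nearly the same sequence, as are those of Tgtp1 and Tgtp2. The 7 windows are therefore not independent cases to set against these percentages. The 100 bases before the start site of the 6 genes with a match are printed 5′ to 3′ on the strand of the gene, with matches to either core in capitals:
Irgm1 (chr11:48871421-48871520, minus strand): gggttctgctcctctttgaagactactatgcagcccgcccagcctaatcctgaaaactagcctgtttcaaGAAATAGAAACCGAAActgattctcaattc
Igtp (chr11:58199456-58199555, plus strand): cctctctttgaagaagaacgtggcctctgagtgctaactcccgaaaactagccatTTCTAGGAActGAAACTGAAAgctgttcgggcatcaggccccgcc
Irgm2 (chr11:58214877-58214976, plus strand): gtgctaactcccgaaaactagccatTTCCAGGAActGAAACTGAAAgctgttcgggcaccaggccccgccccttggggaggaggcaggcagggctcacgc
Tgtp1 (chr11:48992247-48992346, minus strand): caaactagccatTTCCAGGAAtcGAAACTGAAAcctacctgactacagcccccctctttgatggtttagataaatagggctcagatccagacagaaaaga
Tgtp2 (chr11:49064213-49064312, minus strand): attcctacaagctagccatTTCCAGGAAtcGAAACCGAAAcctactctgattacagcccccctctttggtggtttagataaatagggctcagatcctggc
Gm12250 (chr11:58183743-58183842, plus strand): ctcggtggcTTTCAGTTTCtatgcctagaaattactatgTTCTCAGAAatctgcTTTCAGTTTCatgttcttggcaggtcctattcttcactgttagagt

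In Igtp, Irgm2, Tgtp1 and Tgtp2 a GAS core was followed, after 2 bases, by an ISRE core. This spacing was searched for after the windows had been seen. It occurred in 5 of 32851 windows (0.015%), those 4 and that of Gm12185, an IRG-like gene whose span overlaps Tgtp1 on the same strand. The 4 include close copies, so they are not separate cases. In Irgm1 the run in capitals is 2 overlapping ISRE cores, and in Gm12250 both ISRE cores read on the opposite strand. The RefSeq start of Irgm2 lies 15359 bases downstream of the GENCODE gene start, inside the annotated span, that of Tgtp1 lies 1926 bases downstream, and that of Gm12250 lies 3896 bases upstream. A match here is a run of letters and not a tested binding site.

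**Figure D2:**
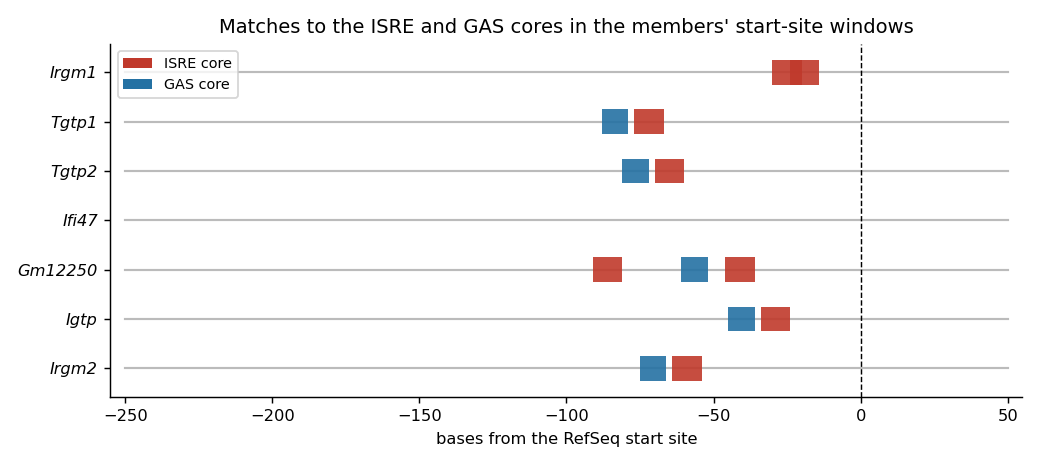
Matches to the ISRE core (red) and the GAS core (blue) in the windows of 7 members, drawn by distance in bases from the RefSeq start site (dashed line). All matches lie within 91 bases before the start, and the window of Ifi47 holds none.

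The first question was whether IRG transcripts differed between tumors that lacked COX and those that did not. All 6 tested members were higher in COX-deficient than in COX-competent tumors, by 2.56-fold (Irgm1) to 4.73-fold (Gm12250). They passed a false discovery rate (FDR) of 0.05 in 6 of 6 cases, whereas 12.1% of the 14550 genes tested did so in the higher direction. At the study's threshold, which also asks for a log2 fold change of 1.5 or more, the 5 genes other than Irgm1 passed, against 3.14% of all genes. The median log2 fold change of the 6 members was 1.60, beside -0.0060 for all genes. Every COX-deficient library lay above every COX-competent library for each of the 6, as it did for 15.4% of all genes. FDRs come from edgeR's quasi-likelihood test over all 14550 genes, whose p-values set the difference between groups against the spread between tumors.

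Among the regulators, Irgm1, which guards lysosomal and Golgi membranes, stood at 5.87, 6.74, 7.45 and 7.31 CPM in the COX-competent tumors. It reached 15.2, 22.7 and 14.6 CPM in COX-deficient tumors and 8.03, 10.3 and 12.8 CPM in NK-depleted tumors. The 3 groups did not overlap, and the lowest level with NK depletion was only just above the highest COX-competent level. In COX-deficient against COX-competent tumors its log2 fold change was 1.35 (SE 0.21, 95% interval 0.90 to 1.81, FDR = 0.00101), the smallest of the 6.

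Igtp, also called Irgm3, is a regulator found on the endoplasmic reticulum and lipid droplets. It measured 9.75, 8.99, 15.2 and 10.4 CPM in COX-competent tumors, 27.5, 39.7 and 32.1 CPM in COX-deficient tumors, and 14.1, 18.6 and 21.3 CPM with NK cells depleted. COX-deficient tumors were the highest without overlap, while the NK-depleted and COX-competent tumors overlapped through COX-competent replicate 3. The log2 fold change in COX-deficient against COX-competent tumors was 1.58 (SE 0.21, 95% interval 1.12 to 2.03, FDR = 0.00048).

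Irgm2, the Golgi-resident regulator, followed another order among the tumors. It measured 20.3, 17.98, 13.6 and 28.4 CPM in COX-competent tumors, 58.0, 79.7 and 43.1 CPM in COX-deficient tumors and 39.5, 36.6 and 56.9 CPM with NK cells depleted. Here both the COX-deficient and the NK-depleted tumors lay above all COX-competent tumors and overlapped each other, and COX-competent replicate 3, the highest of its group for the 5 members other than Irgm2, was the lowest. The log2 fold change in COX-deficient against COX-competent tumors was 1.59 (SE 0.26, 95% interval 1.02 to 2.15, FDR = 0.00155).

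The effector Iigp1, or Irga6, disrupts the vacuole of Toxoplasma. It measured 35.8, 28.3, 69.8 and 47.7 CPM in COX-competent tumors, 91.5, 190.2 and 136 CPM in COX-deficient tumors and 48.1, 67.4 and 90.9 CPM with NK cells depleted. Its 3 group means were 45.4 ± 18.1 (SD, n = 4), 139 ± 49.4 (SD, n = 3) and 68.8 ± 21.4 CPM (SD, n = 3), and NK-depleted tumors overlapped the COX-competent ones. Its highest value with NK cells depleted was just under the lowest of the COX-deficient tumors. The log2 fold change in COX-deficient against COX-competent tumors was 1.62 (SE 0.32, 95% interval 0.92 to 2.31, FDR = 0.00424).

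Ifi47, also called Irgd, had the smallest FDR of the 6 and is the one of the 7 genes searched whose start-site window held no match to either core. That window lies at the outer start of a span of 20388 bases, and starts further inside it were not searched. Ifi47 measured 13.7, 12.2, 17.3 and 16.7 CPM in COX-competent tumors, 38.4, 59.6 and 44.2 CPM in COX-deficient tumors and 19.7, 30.4 and 31.0 CPM with NK cells depleted. The 3 groups did not overlap and stood in the order COX-deficient, NK-depleted, COX-competent. The log2 fold change in COX-deficient against COX-competent tumors was 1.66 (SE 0.20, 95% interval 1.22 to 2.10, FDR = 0.000301).

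Gm12250 (Irgb10), an effector known for liberating bacterial ligands for inflammasomes, rested on the fewest counts of the tested members. It had 15, 11, 39 and 16 counts in COX-competent libraries, 51, 134 and 81 in COX-deficient libraries and 26, 51 and 56 with NK cells depleted, or 1.18 to 3.50, 6.17 to 13.7 and 2.78 to 5.47 CPM. COX-deficient tumors were above all others, and COX-competent replicate 3 reached into the range of the NK-depleted tumors. Its log2 fold change in COX-deficient against COX-competent tumors, 2.24, was the largest of the 6 and had the widest interval (SE 0.41, 95% interval 1.34 to 3.15, FDR = 0.003).

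Tgtp1 and Tgtp2, which encode the effector Irgb6, were at or near the floor in these libraries. Tgtp1 had 0, 0, 1 and 1 counts in COX-competent libraries, 0 in all 3 COX-deficient libraries and 1, 0 and 4 with NK cells depleted. Tgtp2 had 0, 1, 3 and 0 counts, 3, 1 and 1 counts, and 0, 1 and 1 counts in the same order, and no fold is given for either. Over the last 500 bases, the part of a transcript that 3′ libraries read, all 50-base words of the transcripts Tgtp1-201 and Tgtp2-201 also occurred in a transcript of the other gene. Whether reads that fit both copies were counted is not stated, so the low counts do not show that these effectors were little transcribed. No 50-base word of the annotated transcripts of Igtp, Irgm2, Iigp1 and Gm12250 was shared with another gene in that stretch. Irgm1 shared up to 3.99% of its words with scattered genes, and 1 of 5 Ifi47 transcripts shared 13.75% with Olfr56.

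**Figure D3:**
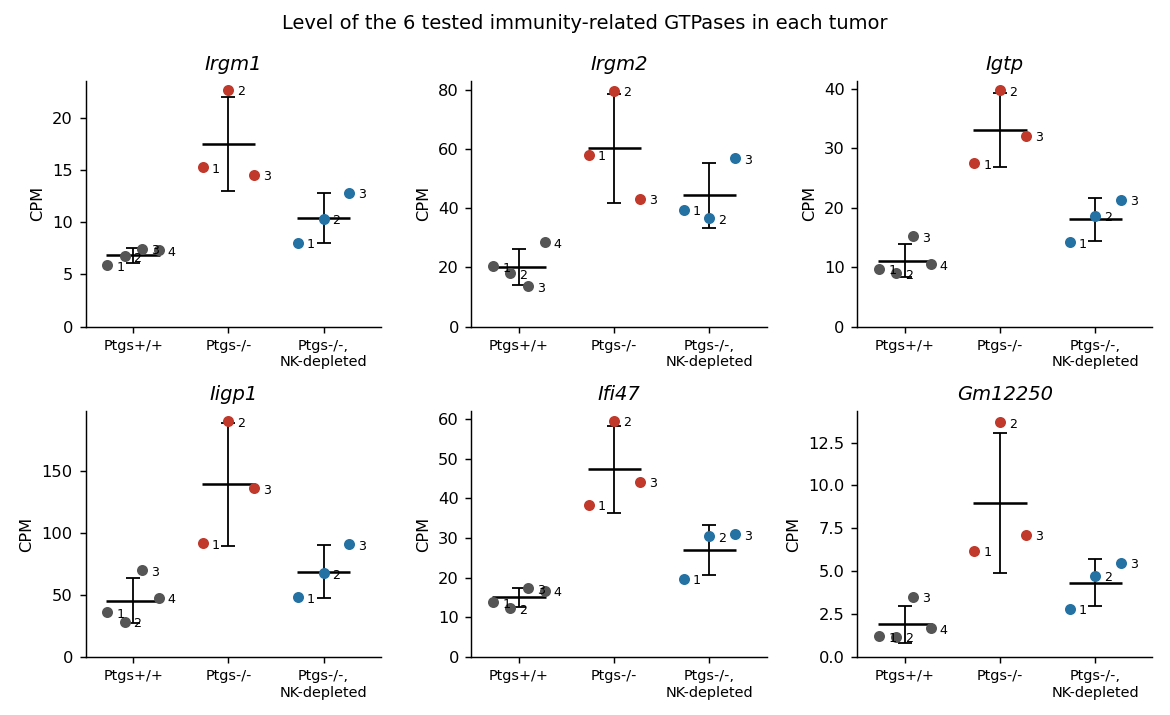
CPM of the 6 tested members in each of the 10 tumors, on axes that start at 0. Points are tumors with their replicate numbers, bars are group means and error bars are SD (n = 4, 3 and 3); COX-deficient replicate 2 is the highest point in all 6 panels, and COX-competent replicate 3 is high for Iigp1, Igtp and Gm12250 and lowest of its group for Irgm2.

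COX-deficient replicate 2 was the highest of all 10 tumors for each of the 6 genes, and NK-depleted replicate 3 was the highest of its group for each. As a mean of log2(CPM + 1) over the 6 members, the tumors scored 3.47, 3.37, 3.91 and 3.77 (COX-competent), 4.90, 5.60 and 5.01 (COX-deficient) and 4.06, 4.44 and 4.72 (NK-depleted). Without COX-deficient replicate 2 all 6 members still passed the FDR in COX-deficient against COX-competent tumors, but only Gm12250 also reached the fold threshold. Over all genes, 1156 passed the FDR as higher in that fit and 355 also the fold threshold, against 1763 and 457 with all libraries. Without COX-competent replicate 2, Gm12250, Ifi47 and Irgm2 reached both thresholds, as did 380 of all genes. Within code EB046 alone, 6 of 6 passed both thresholds with log2 fold changes of 1.54 to 2.38, against 460 of all genes. Code EB042 holds 1 tumor a group and gives no value of its own.

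The second question was how far the IRGs differed when NK cells were depleted. Against NK-depleted tumors, COX-deficient tumors had log2 fold changes of 0.44 (Irgm2) to 1.05 (Gm12250), with a median of 0.84 beside -0.013 for all genes. With edgeR's quasi-likelihood test, 0 of 6 members passed the FDR of 0.05, where 0.515% of all genes were called higher, and 0 passed with the fold threshold, where 0.323% were. At an unadjusted p under 0.05 there were 5 of 6, against 6.9% of all genes, and DESeq2 and edgeR's likelihood ratio test each called 2, Ifi47 and Igtp, at an FDR of 0.05. Over all genes these tools also called more, 193 and 220 genes higher against 75 in the quasi-likelihood test. Each COX-deficient tumor exceeded each NK-depleted tumor for the 5 members other than Irgm2, as for 9.32% of all genes.

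In this comparison Igtp had the smallest FDR, with a log2 fold change of 0.88 (SE 0.22, 95% interval 0.39 to 1.36, FDR = 0.0975). Ifi47 followed with 0.81 (SE 0.21, 95% interval 0.34 to 1.27, FDR = 0.118) and Irgm1 with 0.75 (SE 0.22, 95% interval 0.27 to 1.23, FDR = 0.175). Iigp1 differed by 1.02 (SE 0.34, FDR = 0.262) and Gm12250 by 1.05 (SE 0.42, FDR = 0.372), with wider spread between tumors. For Irgm2 the interval included no difference (0.44, SE 0.27, 95% interval -0.16 to 1.04, FDR = 0.613). The intervals of the other 5 lay above 0. Within code EB046 no member passed either, with log2 fold changes of 0.66 to 1.22, where 27 of all genes were called higher. Without COX-deficient replicate 1, Ifi47 passed the FDR, where 257 of all genes were called higher. Without COX-competent replicate 3, which is in neither group of this comparison and enters through the shared model, Igtp did, where 95 were. With all libraries 75 genes were called higher.

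NK-depleted tumors still exceeded COX-competent tumors in part. Irgm2 (log2 fold change 1.14, SE 0.26, FDR = 0.0147) and Ifi47 (0.85, SE 0.20, FDR = 0.018) passed the FDR, 2 of 6 members, against 6.63% of all genes called higher. Neither reached the fold threshold, nor did any other member, against 2.01% of all genes. Igtp lay just outside (0.70, SE 0.21, FDR = 0.0502), and Irgm1 (0.60, FDR = 0.0848), Gm12250 (1.19, FDR = 0.0946) and Iigp1 (0.60, FDR = 0.258) did not pass. Every NK-depleted tumor was above every COX-competent tumor for 3 of 6, Irgm1, Irgm2 and Ifi47, as for 13.6% of all genes. Without NK-depleted replicate 3 no member passed, and without replicate 2 of that group, or COX-competent replicate 1 or 2, only Irgm2 did. Over all genes these fits called 553, 609, 694 and 667 higher, against 964 with all libraries. Without COX-competent replicate 3, 4 of 6 passed (Gm12250, Ifi47, Igtp and Irgm2), and Gm12250 reached the fold threshold, where 1080 and 306 of all genes did. Within code EB046 Irgm2 and Ifi47 passed, against 825 of all genes.

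**Figure D4:**
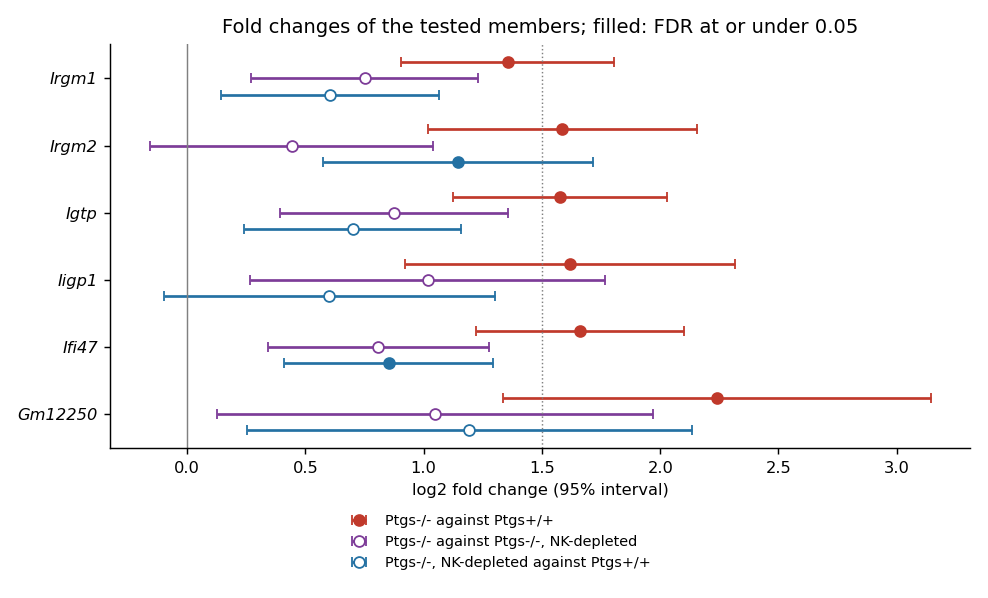
Log2 fold changes of the 6 tested members with 95% intervals in 3 comparisons, where filled points mark an FDR at or under 0.05 and the dotted line marks the fold threshold of 1.5. In COX-deficient against COX-competent tumors all 6 are filled, against NK-depleted tumors none is, and in NK-depleted against COX-competent tumors Irgm2 and Ifi47 are.

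The order of group means was COX-deficient, then NK-depleted, then COX-competent for all 6 tested members, and these comparisons share tumors. Irgm2 had group means of 60.3 ± 18.4 (SD, n = 3), 44.3 ± 10.9 (SD, n = 3) and 20.1 ± 6.20 CPM (SD, n = 4), and its neighbours COX-deficient and NK-depleted did not differ beyond their spread. For Igtp, with 33.1 ± 6.19, 18.03 ± 3.62 and 11.1 ± 2.79 CPM (SD, n = 3, 3 and 4), it was the NK-depleted and COX-competent tumors that overlapped. Irgm2 counts per Igtp count, a ratio chosen after these values were seen, were 2.08, 2, 0.899 and 2.72 in COX-competent tumors, 2.11, 2.01 and 1.34 in COX-deficient tumors and 2.80, 1.97 and 2.67 with NK cells depleted. The groups overlapped in all 3 comparisons, and the smallest p was 0.3 (two-sided exact permutation test, adjusted p = 0.686 over 3 comparisons, where 3 against 3 tumors cannot go below 0.1). An unequal response of these overlapping genes was therefore not shown.

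In bulk tumors, fewer cells of a type and less RNA per cell cannot be told apart. Ptprc, which encodes the leukocyte antigen CD45, moved with the IRGs. It stood at 74.3 ± 8.84 CPM (SD, n = 4) in COX-competent tumors, 168 ± 40.7 (SD, n = 3) in COX-deficient tumors and 95.2 ± 6.21 (SD, n = 3) with NK cells depleted. Its log2 fold change was 1.18 in COX-deficient against COX-competent tumors (FDR = 0.000553) and 0.82 against NK-depleted tumors (FDR = 0.038). Counted per Ptprc count, no member separated COX-deficient from COX-competent tumors, where 1.31% of all genes did so in the higher direction. Log2 differences in that ratio were 0.18 (Irgm1) to 1.16 (Gm12250), all 6 above 0. The smallest p was 0.114 by two-sided exact permutation tests, which allow no less than 0.0571 with 3 against 4 tumors, and the smallest adjusted p over the 18 tests was 0.514.

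Per Ptprc count, COX-deficient and NK-depleted tumors had close means for Ifi47 and Irgm1. Ifi47 gave 0.286 ± 0.0474 (SD, n = 3) and 0.282 ± 0.054 counts (SD, n = 3) per Ptprc count, and 0.205 ± 0.0492 (SD, n = 4) in COX-competent tumors. Log2 differences between COX-deficient and NK-depleted tumors ran from -0.36 (Irgm2) to 0.23 (Gm12250), with no member separating the groups (0.447% of all genes did) and p from 0.4 to 0.9 in exact permutation tests. Between NK-depleted and COX-competent tumors they ran from 0.22 to 0.94, again with overlap for all 6 (4.11% of all genes did not overlap). Per summed count of 12 macrophage markers instead, the differences were 0.50 to 1.49 between COX-deficient and COX-competent tumors and 0.063 to 0.66 between COX-deficient and NK-depleted tumors, with adjusted p of at least 0.187 in exact permutation tests. Such tests allow no p under 0.0571 with 3 against 4 tumors or 0.1 with 3 against 3. No adjusted p could therefore reach 0.05, whatever the separation. On the macrophage scale 4 of 6 members, Irgm1, Igtp, Ifi47 and Gm12250, were higher without overlap in COX-deficient than in COX-competent tumors, against 2.85% of all genes. The last 3 of these were so against NK-depleted tumors, where 2.0% of all genes were, and 0 of 6 separated NK-depleted from COX-competent tumors (3.87% of all genes). Whether the members separated the groups thus differed between the leukocyte and the macrophage reference.

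Other cell type markers moved with the groups as well, and their part in the IRG results was not tested. Of 12 macrophage markers, 9 rose in COX-deficient against COX-competent tumors and none fell, and their summed level was 2712 to 3246 CPM in COX-competent, 4392 to 6557 in COX-deficient and 4067 to 4198 in NK-depleted tumors. T cell markers summed to 8.56 to 10.4 CPM in COX-competent tumors, 24.9 to 61.3 in COX-deficient and 16.1 to 27.2 with NK cells depleted, with 7 of 8 tested markers up in COX-deficient against COX-competent tumors. Type 1 dendritic cell markers summed to 123 to 128, 256 to 348 and 209 to 239 CPM in the same order, and 6 of 8 were up. A large part of these sums was Irf8, at means of 65.0, 174 and 113 CPM, which is also in the IFN-γ list below. Neutrophil markers went the other way, at 464 to 715, 92.2 to 119 and 156 to 212 CPM, and 6 of 9 tested fell. Of 11 tested NK cell markers, 9 rose and 1 fell in COX-deficient against COX-competent tumors, and 10 were higher in COX-deficient than in NK-depleted tumors. Their summed level did not follow the first count, at 264 to 297 CPM in COX-competent tumors, 237 to 335 in COX-deficient tumors and 108 to 173 with NK cells depleted, and 2 of the 3 COX-deficient tumors lay below every COX-competent one. Ncr1, at means of 0.96, 4.69 and 0 CPM in that order, and Klrb1c, at 2.01, 11.9 and 0.58 CPM, made up little of this sum. The sum therefore rests on other genes of the list and is no measure of NK cell content. Of 8 skeletal muscle markers, 7 were higher in NK-depleted than in COX-deficient tumors, with sums of 2361 to 5491 against 107 to 370 CPM, and in COX-competent tumors the sum was 21.5 to 175 CPM. Of the 2 tested B cell markers, 2 rose in COX-deficient against COX-competent tumors (sums of 13.1 to 24.6 and 43.7 to 92.2 CPM, and 55.2 to 77.5 with NK cells depleted). Fibroblast markers rose for 4 of 6, endothelial markers fell for 2 of 6, 1 of 5 tested keratinocyte markers fell, and 0 of 2 melanocytic and 0 of 5 adipocyte markers passed, by edgeR's quasi-likelihood test in that comparison. There 12.1% of all 14550 genes rose and 1597 genes fell, so falls of 1 or 2 genes in such short lists are no result about those cells. Against NK-depleted tumors, 0.515% of all genes were higher in COX-deficient tumors and 134 genes were lower. Adipocyte markers varied from 389 to 8006 CPM over the tumors and overlapped in all groups.

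The IFN-γ chain gives the context in which these genes are usually read. Ifng itself had 0, 0, 0 and 2 counts in COX-competent libraries, 3, 4 and 7 in COX-deficient libraries and 1, 0 and 0 with NK cells depleted, too few to be tested. Of 13 tested genes from receptor to target factors, 7 rose and 1 fell in COX-deficient against COX-competent tumors (median 0.37 on the log2 scale). Over all 14550 genes, 12.1% rose in that comparison and 1597 genes fell. Irf8, a factor of myeloid cells, rose by 1.42 (FDR = 0.000135) and differed by 0.62 in the NK comparison (FDR = 0.11). Irf1, a primary IFN-γ target that acts at ISREs, was the 1 gene of the chain past the FDR in both, by 0.80 (FDR = 0.00026) against COX-competent and by 0.50 (FDR = 0.0341) against NK-depleted tumors. The one gene that fell was Socs3, a feedback inhibitor of cytokine signaling.

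Guanylate-binding proteins (Gbps), the other GTPase family of the vacuole, had 8 of 11 genes tested. All 8 were higher in COX-deficient than in COX-competent tumors (median 1.80 on the log2 scale), and 2, Gbp2 and Gbp8, were also higher than in NK-depleted tumors, where the median was 0.95. Of all genes, 12.1% and 0.515% were called higher in these comparisons. Gbp8 rose by 3.27 (FDR = 9.04e-05) and 1.53 (FDR = 0.0336), and Gbp2 by 1.34 (FDR = 0.000248) and 0.82 (FDR = 0.0336). Gbp4 rose by 2.15 (FDR = 0.000164) against COX-competent tumors and differed by 1.08 from NK-depleted ones (FDR = 0.059). In NK-depleted against COX-competent tumors 4 of the 8 passed, against 6.63% of all genes called higher. Several Gbps are close copies, so their separate counts are uncertain.

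Of 10 other IRG-like genes, 9 were in the table and 6 tested, and 5 rose in COX-deficient against COX-competent tumors (median 1.42), none in the NK comparison (median 0.44). The shares of all genes called higher were 12.1% and 0.515%. Gm4841 rose by 2.77 (SE 0.52, FDR = 0.00325), 9930111J21Rik2 by 1.46 (SE 0.28, FDR = 0.00354) and F830016B08Rik by 1.37 (SE 0.32, FDR = 0.0107). The first and last also passed in NK-depleted against COX-competent tumors, by 2.32 (FDR = 0.0148) and 1.32 (FDR = 0.0206). For F830016B08Rik the COX-deficient and NK-depleted groups stood at 4.62 ± 1.25 and 4.45 ± 1.70 CPM (SD, n = 3 each), against 1.77 ± 0.434 (SD, n = 4) in COX-competent tumors. The log2 difference between them was 0.052 with a 95% interval of -0.66 to 0.76.

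All 19 type I interferon response genes were tested and all 19 rose in COX-deficient against COX-competent tumors, with a median of 1.69, against 12.1% of all genes. Mx1, a dynamin-like antiviral GTPase, rose by 2.36 (FDR = 0.000423), Zbp1, a sensor of Z-form nucleic acid, by 2.09 (FDR = 0.00038) and Ifit2 by 1.53 (FDR = 0.000413). In the NK comparison Ifit2 alone passed (1.05, FDR = 0.0295) and the median was 0.98, where 0.515% of all genes were called higher. In NK-depleted against COX-competent tumors 4 passed, Ifit1, Mx1, Irf7 and Zbp1, against 6.63% of all genes. Both interferon lists hold genes that either interferon can induce, so they do not tell these apart.

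Of 14 genes of LC3 conjugation and autophagy, the machinery on which effector IRGs depend, 1 rose and 2 fell in COX-deficient against COX-competent tumors, and the median was 0.057. Over all 14550 genes 1763 rose and 1597 fell, so these counts are close to the background and are no result about this machinery. Sqstm1, an autophagy receptor, rose by 0.56 (FDR = 0.0157), while Ulk1, a kinase that starts autophagy, fell by 0.57 (FDR = 0.00205) and Map1lc3a, an LC3 gene, fell by 0.55 (FDR = 0.0108). None passed in the NK comparison (median -0.033 by edgeR's quasi-likelihood test, with Ulk1 at -0.26, Map1lc3a at -0.37 and Sqstm1 at 0.05), and Sqstm1 alone passed in NK-depleted against COX-competent tumors (0.51, FDR = 0.0371).

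**Figure D5:**
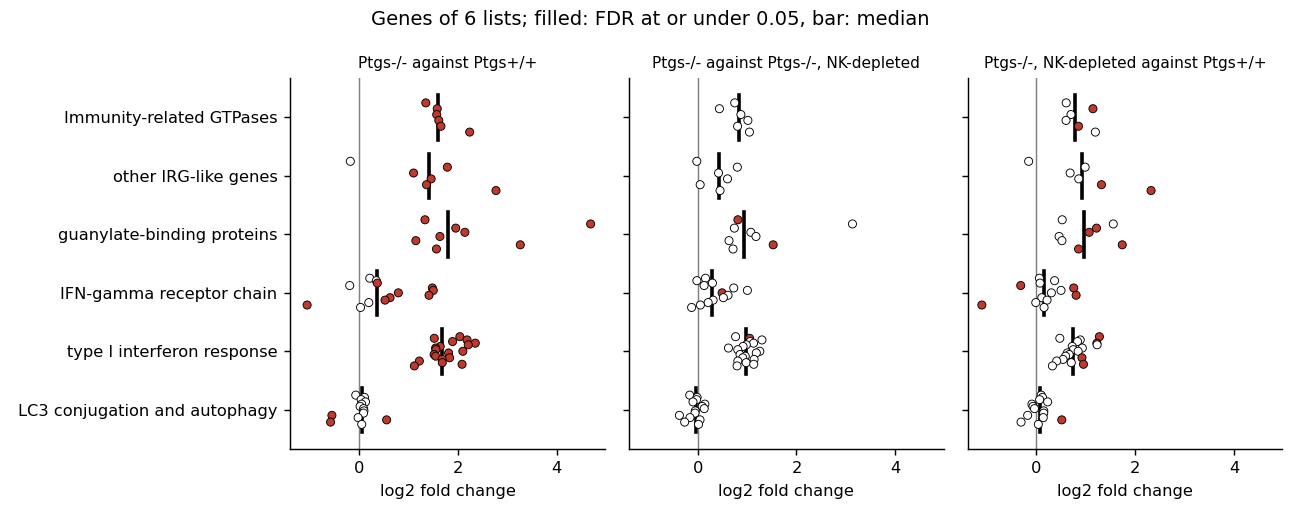
Log2 fold changes of the tested genes of 6 lists in 3 comparisons, 1 point per gene, filled where the FDR is at or under 0.05, with a bar at the median of each list. In COX-deficient against COX-competent tumors the medians are 1.60 for IRGs, 1.80 for Gbps, 1.69 for type I interferon response genes and 0.057 for LC3 conjugation and autophagy genes.

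Around the members, GENCODE M21 places 36 other genes within 100000 bases, of which 34 are in the table and 16 were tested. Of these, 6 rose and 2 fell in COX-deficient against COX-competent tumors (median 0.11 on the log2 scale). Over all 14550 genes 12.1% rose and 1597 genes fell, so the 2 falls are near that background. The 6 were 9930111J21Rik2, Gm5431 and F830016B08Rik, which are IRG-like, and Olfr56, Trim7 and Psme2b. Olfr56, which spans Ifi47 on the same strand, had 112 counts over the 10 libraries and rose by 2.41 (FDR = 0.00141). Psme2b, related to a proteasome activator gene of which it may share reads, rose by 0.89 (FDR = 0.00169) and Trim7, a ubiquitin ligase gene, by 1.26 (FDR = 0.00562). Smim3 (-0.98, FDR = 0.00457) and Gemin5 (-0.44, FDR = 0.0487) fell. None of the 16 passed in the NK comparison (edgeR's quasi-likelihood test), where their median was -0.0075, and in NK-depleted against COX-competent tumors Trim7 and F830016B08Rik rose and Smim3 fell. In that last comparison 6.63% of all genes rose and 854 genes fell.

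Over the 10 tumors the members varied together, with Pearson's r on log2(CPM + 1) between 0.74 and 0.98 for the 15 pairs. The points share their group, so r also carries the group differences already given. Irgm2 had the lowest mean r with the others, with r of 0.74 to 0.88, and the 10 pairs without it lay between 0.93 and 0.98. By mean r with the 6 members, the 10 most similar of the other tested genes were Ifi206, Ifit3, Trim30a, Ddx60, Dtx3l, Ifi213, Parp14, Gbp7, Gbp9 and Cmpk2, at 0.956 down to 0.948. Ifit3 had 24.8, 113 and 45.8 CPM and Trim30a 61.1, 169.6 and 92.8 CPM as means in COX-competent, COX-deficient and NK-depleted tumors. With Spearman's rho in place of r, 3 of these 10 stayed among the top 10 and the other 7 were replaced, so which genes make up the list is not firm.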

How the data were processed

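Lexogen QuantSeq 3′ libraries were made from bulk tumor RNA. With BBDUK the authors cut 12 bases from read starts and took out contaminants, removed polyG and polyA tails with fqtrim and cutadapt, aligned reads to GRCm38 with STAR and assigned them to genes of the v86 annotation with featureCounts. They deposited raw counts per Ensembl gene, 1 column per tumor, not normalized or pooled. The treatment of strand, of reads mapping to several genes and of molecular identifiers is not given in the sources used here. Names and coordinates come from GENCODE M21.

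Counts were analysed with edgeR 4.0.16 in R 4.3.3 (filterByExpr, TMM, quasi-likelihood test, 3 groups in 1 model of 10 libraries, Benjamini-Hochberg adjustment over 14550 genes), and DESeq2 1.42.0 was an alternative. The quasi-likelihood fit was tested on simulated counts for COX-deficient against COX-competent tumors only, and the other comparisons and tests were not simulated. Single ratios were compared by exact permutation tests. Start-site sequences are RefSeq's (GRCm38.p6). Replicates differed by a chi-square per degree of freedom of 7.41 to 30.1, so none was a library deposited again. Tumors are replicates by their labels, which do not tie them to animals. Members, lists and tests were chosen with earlier results of these data known. Named genes are all 8 members, Ptgs1, Ptgs2 and Ifng, from each list that is not of cell markers at most the 3 genes with the smallest p in either Ptgs-/- comparison, neighbours that passed, and the 10 genes most like the members; 1 gene of the IFN-γ list is not reported here. Precision is limited by 3 or 4 tumors a group and, for Gm12250, Tgtp1 and Tgtp2, by counts.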

Additional observations from a re-analysis of the deposited data

How the results depend on the processing

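In COX-deficient against COX-competent tumors the count of members past the FDR was 6 under all 21 alternatives, which called 1156 to 2028 of all genes higher. With the fold threshold it was 1 to 6 when a library was left out, where 355 to 570 of all genes passed. Against NK-depleted tumors the main 0 became 2 with DESeq2, 2 with edgeR's likelihood ratio test, 3 (Ifi47, Igtp and Iigp1) with no filter on low counts, settings that called 193, 220 and 209 of all genes higher against 75, and 0 to 1 with a library left out; with the fold threshold it was 0 throughout. In NK-depleted against COX-competent tumors the main 2 became 4 with DESeq2, 4 with the likelihood ratio test, 4 with no filter (1183, 1200 and 1241 of all genes higher against 964), and 0 to 4 with a library left out, and with the fold threshold 0 to 1. The cause was not tested. Of 126 member fold changes under alternatives in each comparison none changed sign; 9 gained the FDR in the NK comparison, and in NK-depleted against COX-competent tumors 14 gained and 5 lost it. Per macrophage marker count in place of Ptprc, 2 log2 differences between COX-deficient and NK-depleted tumors changed sign, Irgm1 from -0.040 to 0.39 and Irgm2 from -0.36 to 0.063. With the title number as a replicate block, 6, 0 and 3 members passed the FDR in the 3 comparisons, where 1716, 66 and 988 of all genes did. Same-numbered tumors did not all deviate together (r from -0.30 to 0.39, and from -0.22 to 0.39 within a code). With 3 or 4 tumors a group, these r do not settle whether the numbers mark pairs. Over all genes, the number called higher across alternatives was 12 to 257 in the NK comparison and 553 to 1241 in NK-depleted against COX-competent tumors. At this depth Tgtp1 and Tgtp2 cannot be compared.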
